A study of Mus musculus with 6 samples.

Results

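Trophoblast transcription factors were described here as a list of 10 genes, Cdx2, Elf5, Ets2, Gata2, Gata3, Tfap2a, Tfap2c, Hand1, Ascl2 and Esx1, chosen by name among the 23999 gene symbols of the count table, and all 10 were present. The cells were mouse embryonic stem cells, pluripotent cells kept in culture. By their labels, cells of both groups carried a floxed element called -5 and an exogenous V5-tagged mouse Nanog, and they differed in what they received for 6 days: 4OHT, the active form of tamoxifen (n = 3), or ethanol as vehicle (n = 3). The labels do not name the recombinase that 4OHT would act on, nor say whether the samples were separate cultures or came from 1 clone, so the p-values measure the spread between these samples, which may be technical. The series title places the element in the study of an enhancer of Nanog, and the comparison asked which genes changed after 4OHT.

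In the mouse embryo the trophoblast is the outer lineage that builds the placenta. It is set apart from the pluripotent inner cells when TEAD4 and YAP, the nuclear factors of the Hippo pathway, switch on Cdx2 and Gata3, with NOTCH signalling as a further input to Cdx2. CDX2 and the pluripotency factor OCT4 oppose each other, and embryonic stem cells in culture rarely make trophoblast unless such factors are forced on. CDX2, ELF5, TFAP2C, GATA3 and ETS2 act in the specification and self-renewal of the lineage, while GATA2, TFAP2A, HAND1, ASCL2 and ESX1 act more in its differentiated layers.

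Levels are given as CPM, read counts scaled to the same library size with TMM factors. The 4OHT libraries held 55194644, 515388 and 31307423 counts and the vehicle libraries 52250671, 20030423 and 26370388. In the shallow 4OHT replicate 2, 1 read was worth 1.91 CPM and a count of 0 allowed up to 5.73 CPM, a limit for counting error only. That library carried information on the rough level of Tfap2c (45 reads) and Ets2 (19 reads) and little on the other 8 genes. Its reads of these 2 genes were too few to resolve changes of the size seen. Nanog stood at 177, 172 and 194 CPM in 4OHT libraries, against 631, 660 and 641 CPM in vehicle libraries (log2 fold change -1.81, SE 0.06, edgeR adjusted p = 1.6e-13), and the symbol may also collect reads from the tagged copy. The embryonic stem cell markers Pou5f1, Sox2, Zfp42, Esrrb, Klf4 and Tfcp2l1 summed to 4708 to 4829 CPM in 4OHT and 4683 to 4768 CPM in vehicle libraries, a sum over genes that went both ways. Pou5f1, which encodes OCT4, fell to 1084, 1182 and 1099 CPM in 4OHT libraries, against 1286, 1295 and 1270 CPM in vehicle libraries (log2 fold change -0.21, edgeR adjusted p = 0.014). Sox2, a partner of OCT4, rose to 891, 846 and 914 CPM in 4OHT libraries, against 818, 779 and 764 CPM in vehicle libraries (log2 fold change 0.18, edgeR adjusted p = 0.0337), and the other 4 markers did not pass. For both genes the groups did not overlap, beside 31.3% of all tested genes. In the shallow 4OHT replicate 2 the values rest on 619 reads of Pou5f1 and 443 of Sox2, far fewer than in any other library. The call of Pou5f1 was lost without vehicle replicate 2 (edgeR adjusted p = 0.0717), and that of Sox2 without 4OHT replicate 3 (0.0788), vehicle replicate 2 (0.2) or vehicle replicate 3 (0.16) and with DESeq2 (adjusted p = 0.0522). In these bulk samples, a change in the number of cells that express a gene and a change in RNA per cell cannot be told apart.

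The 10 factors spanned a wide range of levels, with Tfap2c and Ets2 far above the rest. Divided by the length of the longest coding transcript, Tfap2c had 28.7 ± 0.80 CPM per kb in 4OHT and 24.8 ± 0.57 CPM per kb in vehicle cells (SD, n = 3 each). Ets2 came next, with 8.49 ± 0.81 CPM per kb in 4OHT and 12.4 ± 0.15 CPM per kb in vehicle cells (SD, n = 3 each). In the vehicle libraries the order below them was Ascl2 (1.67 to 2.45 CPM per kb), Tfap2a (0.971 to 1.04), Esx1 (0.883 to 1.01), Gata2 (0.572 to 0.582), Hand1 (0.308 to 0.418), Gata3 (0.141 to 0.201), Cdx2 (0.0168 to 0.0919) and Elf5 (0 to 0.015). The ranges of Tfap2a and Esx1 overlapped, so these neighbours in the order did not differ beyond their spread, while the other neighbours did not overlap in vehicle, though the lowest Cdx2 and the highest Elf5 value rest on 1 read each. In 4OHT replicates 1 and 3 the order differed from that in vehicle. Gata2 stood at 0.21 and 0.274 CPM per kb, below Gata3 at 0.29 and 0.305 and Hand1 at 0.509 and 0.892. In 4OHT replicate 3, Esx1 (0.907) and Hand1 also stood above Tfap2a (0.833).

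**Figure D1:**
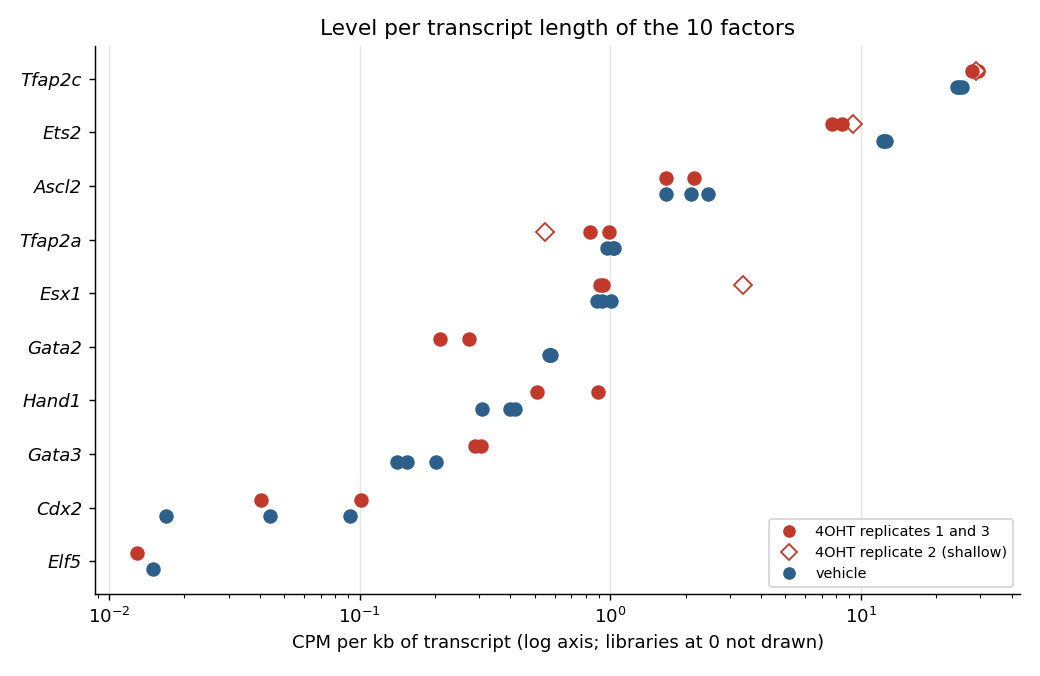
Level of each factor in CPM per kb of its longest coding transcript (log axis) in each library, 4OHT above vehicle for each gene, with libraries at 0 not drawn. Tfap2c and Ets2 stand above the rest, and Gata2 in 4OHT replicates 1 and 3 lies left of its 3 vehicle points.

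Of the 10 factors, 8 passed the filter on low counts, and 5 of these 8 differed between 4OHT and vehicle cells in edgeR's quasi-likelihood test at an adjusted p under 0.05. Tfap2c, Gata3 and Hand1 rose and Gata2 and Ets2 fell, while Tfap2a, Ascl2 and Esx1 did not pass and Cdx2 and Elf5 were too low to test. Over all 14458 tested genes 22.4% were called, 11.9% as higher and 10.5% as lower. The groups did not overlap for 3 of the 8, Tfap2c, Gata2 and Ets2, beside 31.3% of all tested genes. For Gata2 this counts the 0 in 4OHT replicate 2, a library too shallow to show separation at that level, and rests on 4OHT replicates 1 and 3. In that library the 45 reads of Tfap2c and 19 of Ets2 were also too few to tell the 4OHT from the vehicle level. DESeq2 with all libraries called only Ets2 of the 6 members to which it gave an adjusted p, and 7.48% of all genes with one. Without the shallow 4OHT replicate 2 it called Tfap2c, Gata2 and Ets2 of 8, and 16.8% of all genes. Limma-voom with quantile normalization called the same 3 of 8 and 14.4% of all genes, and at a mean count of at least 50 edgeR called 2 of 4 members, Tfap2c and Ets2, and 23.2% of all genes. The median log2 fold change was -0.05 over the 8 tested factors and -0.0026 over all tested genes. Each of the 8 lay above the level of the filter, 0.347 CPM, in at least 2 of 3 4OHT and in all 3 vehicle libraries, so that none was tested through 1 group alone.

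**Figure D2:**
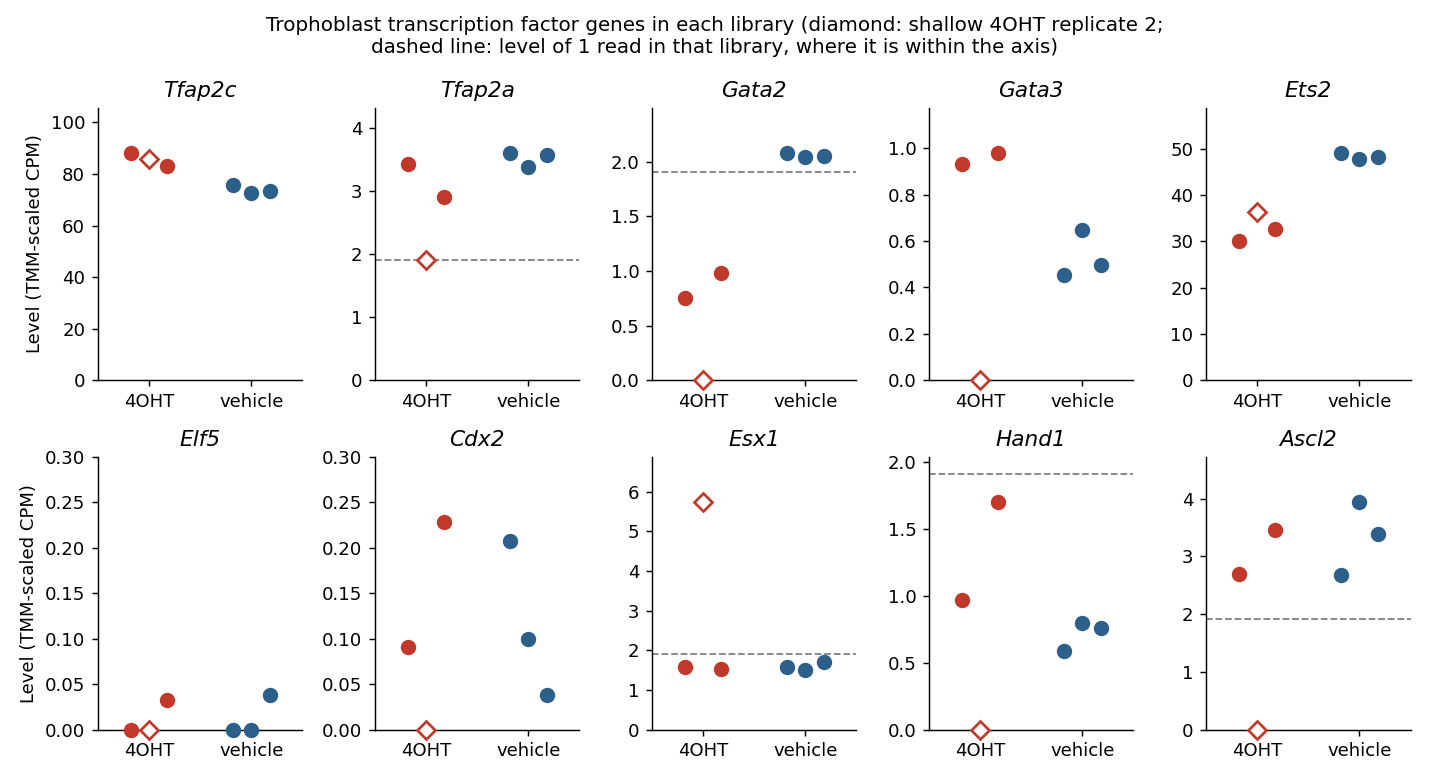
Level of the 10 factors in CPM in each library, with 4OHT left of vehicle, replicates 1 to 3 from left to right and the shallow 4OHT replicate 2 as an open diamond. Ets2 and Gata2 lie lower and Tfap2c lies higher in all 3 4OHT libraries than in all 3 vehicle libraries, and the diamond, whose library is too shallow to resolve levels this low, sits at 0 for Gata2, Gata3, Elf5, Cdx2, Hand1 and Ascl2.

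Among the specification factors, Cdx2 and Elf5 were close to absent in both groups. Cdx2, a caudal-type homeobox factor that starts the trophectoderm, had 5, 0 and 7 reads in 4OHT and 11, 2 and 1 reads in vehicle libraries. The 12 reads of 4OHT and 14 reads of vehicle gave a pooled ratio of 0.991, with an exact 95% interval of 0.419 to 2.31 that covers counting error only. A change of Cdx2 within that range was not detectable at this depth. Elf5, an ETS-family factor known as a gatekeeper of the trophoblast lineage whose promoter is methylated in embryonic stem cells, had 1 read in 4OHT replicate 3 and 1 read in vehicle replicate 3, and no read in the other libraries. The 250 bases before the Cdx2 start in RefSeq (GRCm38.p6, chr5:147307250-147307499, minus strand) are shown because this gene defines the lineage. Here and below, capitals mark matches on either strand to 6 motifs, and no matches overlap in the windows printed. The letters searched were AGATAA for zinc finger factors of the GATA2 type, GCCNNNGGC for AP-2 proteins, GGAATG for TEAD4, CCGGAA for ETS factors, TTTATG for CDX2 and the octamer ATTTGCAT for OCT4.
Cdx2: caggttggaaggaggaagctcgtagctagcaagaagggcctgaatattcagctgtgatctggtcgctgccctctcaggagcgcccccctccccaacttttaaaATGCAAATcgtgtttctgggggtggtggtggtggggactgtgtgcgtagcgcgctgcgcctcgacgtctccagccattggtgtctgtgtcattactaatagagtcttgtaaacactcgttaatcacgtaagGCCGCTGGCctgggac
The window holds 1 octamer, in the opposite orientation, and 1 AP-2 match, and 1.6% and 13.7% of the 32851 promoter windows in the RefSeq table hold these letters.

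Tfap2c encodes AP-2 gamma, which trophoblast cells need and which naive pluripotent and germ cells also express. It stood at 88.2, 85.9 and 83.3 CPM in 4OHT libraries, against 75.7, 72.5 and 73.3 CPM in vehicle libraries. All 3 4OHT values lay above all 3 vehicle values, by a small margin. The shallow 4OHT replicate 2 had 45 reads, where 39 would be expected at the vehicle level and 45.3 at the level of 4OHT replicates 1 and 3. So few reads cannot tell these 2 levels apart, and the separation rests on 4OHT replicates 1 and 3. The log2 fold change was 0.21 (SE 0.06, edgeR adjusted p = 0.0133), with a 95% interval of 0.09 to 0.34. The call was lost without vehicle replicate 2 (edgeR adjusted p = 0.111) or replicate 3 (0.0668) and with DESeq2 (adjusted p = 0.196). Its related gene Tfap2a encodes AP-2 alpha, which also acts in the neural crest and surface ectoderm. Tfap2a stood at 3.44, 1.91 and 2.91 CPM in 4OHT libraries, against 3.61, 3.39 and 3.58 CPM in vehicle libraries, and the groups overlapped. Its log2 fold change was -0.15 (95% interval -0.45 to 0.16, edgeR adjusted p = 0.519), and the 4OHT replicate 2 value rests on 1 read. The 3 annotated antisense genes, not analysed here, overlap 1.49% to 7.75% of the exon bases of Tfap2a each, and the use of strand in the counting is not given in the sources used here.

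Ets2 encodes an ETS-domain factor that trophoblast stem cells need for self-renewal. It had 1642, 19 and 1003 reads in 4OHT libraries, against 2598, 958 and 1266 reads in vehicle libraries. Scaled, these were 30.0, 36.3 and 32.7 CPM in 4OHT and 49.1, 47.7 and 48.2 CPM in vehicle, with no overlap. Ets2 fell to 68.3% of its vehicle level by group means (log2 fold change -0.62, SE 0.07, 95% interval -0.77 to -0.48, edgeR adjusted p = 1.09e-06). In the shallow 4OHT replicate 2, with its 19 reads, 25.5 reads would be expected at the vehicle level and 16.2 at the level of 4OHT replicates 1 and 3. That library alone cannot tell these 2 levels apart. Ets2 was the only member that every tool and every fit without 1 library called, with log2 fold changes of -0.68 to -0.56 when single libraries were left out. Its promoter window (GRCm38.p6, chr16:95702157-95702406, plus strand) is shown as that of the best-supported fall, and holds none of the 6 motifs, with a GC content of 71.6% beside a median of 52.4% for all windows.
Ets2: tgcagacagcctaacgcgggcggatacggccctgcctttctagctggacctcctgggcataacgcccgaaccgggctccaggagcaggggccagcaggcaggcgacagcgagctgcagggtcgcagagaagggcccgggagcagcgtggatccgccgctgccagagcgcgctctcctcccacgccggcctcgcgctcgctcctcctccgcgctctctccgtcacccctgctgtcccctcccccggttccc

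The GATA factor genes had log2 fold changes of opposite sign from low levels, and the rise of Gata3 was less stable than the fall of Gata2. GATA2 and GATA3 are zinc finger proteins that activate placental hormone genes in trophoblast giant cells, and GATA3 also acts beside CDX2 in the trophectoderm. Gata2 had 41, 0 and 30 reads in 4OHT libraries, against 110, 41 and 54 reads in vehicle libraries. Its levels were 0.749, 0 and 0.979 CPM in 4OHT and 2.08, 2.04 and 2.06 CPM in vehicle, so that all 4OHT values lay below all vehicle values. The vehicle libraries were nearly equal, more closely than counts of 41 to 110 reads can resolve. The log2 fold change was -1.31 (SE 0.21, edgeR adjusted p = 0.000123), with a 95% interval of -1.75 to -0.86. The 0 in 4OHT replicate 2 says little, because 1.08 reads would be expected there at the vehicle level. Without that library the log2 fold change was -1.30 (edgeR adjusted p = 0.000702), and DESeq2 with all libraries did not call Gata2 (adjusted p = 0.222), whereas DESeq2 without it did (adjusted p = 0.000487).

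Gata3 had 51, 0 and 30 reads in 4OHT libraries, against 24, 13 and 13 reads in vehicle libraries. The levels were 0.932, 0 and 0.979 CPM in 4OHT and 0.454, 0.647 and 0.495 CPM in vehicle. The groups overlapped because of the 0 in 4OHT replicate 2, where 0.264 reads would be expected at the vehicle level, while 4OHT replicates 1 and 3 lay at 1.75 and 1.84 times the vehicle mean. The log2 fold change was 0.89 (SE 0.27, edgeR adjusted p = 0.0223), with a 95% interval of 0.32 to 1.46. The call was lost without 4OHT replicate 1 (edgeR adjusted p = 0.0706), vehicle replicate 1 (0.157) or vehicle replicate 3 (0.0627), and in limma-voom with quantile normalization (0.139). DESeq2 gave Gata3 no adjusted p with all libraries and did not call it without 4OHT replicate 2 (adjusted p = 0.172). The promoter windows of both genes are shown for the contrast between these relatives (GRCm38.p6). The first is Gata2 at its upstream start (chr6:88193641-88193890, plus strand), the second Gata2 at its downstream start (chr6:88198414-88198663, plus strand) and the third Gata3 (chr2:9878601-9878850, minus strand).
Gata2 upstream: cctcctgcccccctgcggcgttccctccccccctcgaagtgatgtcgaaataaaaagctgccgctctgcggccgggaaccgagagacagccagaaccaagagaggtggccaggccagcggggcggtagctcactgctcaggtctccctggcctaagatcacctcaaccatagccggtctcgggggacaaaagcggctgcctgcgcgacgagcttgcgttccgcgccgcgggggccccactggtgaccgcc
Gata2 downstream: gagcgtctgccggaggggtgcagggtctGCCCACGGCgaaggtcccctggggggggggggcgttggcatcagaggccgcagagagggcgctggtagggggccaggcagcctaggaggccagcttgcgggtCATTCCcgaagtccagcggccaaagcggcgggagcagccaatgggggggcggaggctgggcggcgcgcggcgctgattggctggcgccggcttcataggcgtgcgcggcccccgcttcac
Gata3: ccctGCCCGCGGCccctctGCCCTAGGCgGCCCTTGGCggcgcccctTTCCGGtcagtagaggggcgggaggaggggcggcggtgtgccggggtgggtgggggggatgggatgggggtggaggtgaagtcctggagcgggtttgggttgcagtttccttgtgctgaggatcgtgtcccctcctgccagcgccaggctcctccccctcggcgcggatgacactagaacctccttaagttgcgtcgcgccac
No window holds AGATAA, which 9.99% of all windows hold. The upstream Gata2 window holds none of the 6 motifs, the downstream Gata2 window 1 AP-2 and 1 TEAD match, and the Gata3 window 3 AP-2 matches and 1 ETS match. The GC content was 67.2% and 74% for Gata2 and 70% for Gata3. The read counts do not say which Gata2 start was used. An antisense gene, not analysed here, overlaps 3.9% of the exon bases of Gata3.

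Hand1, a basic helix-loop-helix factor of trophoblast giant cells that also acts in heart and other mesoderm, had 53, 0 and 52 reads in 4OHT libraries, against 31, 16 and 20 reads in vehicle libraries. The levels were 0.968, 0 and 1.70 CPM in 4OHT and 0.586, 0.797 and 0.761 CPM in vehicle. 4OHT replicates 1 and 3 lay above all vehicle values, at 1.36 and 2.38 times the vehicle mean, and 4OHT replicate 2 lay at 0, where 0.354 reads would be expected at the vehicle level. The log2 fold change was 0.87 (SE 0.28, edgeR adjusted p = 0.0317), with a 95% interval of 0.28 to 1.46. It rested largely on 4OHT replicate 3, without which it was 0.49 (edgeR adjusted p = 0.265). The call was also lost without 4OHT replicate 2 (0.0504) or vehicle replicate 1 (0.18) and in limma-voom with quantile normalization (0.295). DESeq2 without 4OHT replicate 2 did not call Hand1 (adjusted p = 0.108).

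Ascl2 and Esx1 did not pass the test. Ascl2, an imprinted basic helix-loop-helix factor of the spongiotrophoblast, stood at 2.69, 0 and 3.46 CPM in 4OHT libraries, against 2.68, 3.93 and 3.39 CPM in vehicle libraries. Its log2 fold change was -0.11 (95% interval -0.50 to 0.28, edgeR adjusted p = 0.737). Esx1, an X-linked homeobox factor of the placental labyrinth, stood at 1.59, 5.73 and 1.53 CPM in 4OHT libraries, against 1.57, 1.49 and 1.71 CPM in vehicle libraries. The high 4OHT value was that of the shallow replicate 2 and rests on 3 reads, where 0.834 would be expected at the vehicle level. The log2 fold change of Esx1 was 0.01 (95% interval -0.42 to 0.44, edgeR adjusted p = 0.996), so that shifts beyond those bounds lay outside the interval while smaller ones could not be told from none.

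**Figure D3:**
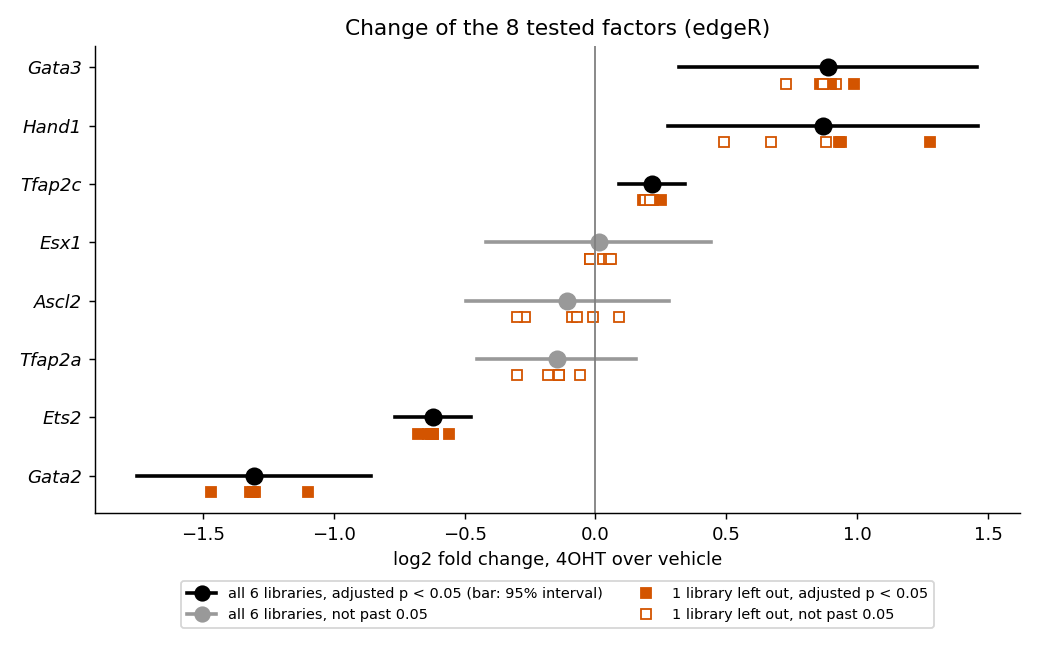
Log2 fold change of 4OHT over vehicle for the 8 tested factors, with circles and 95% intervals from all 6 libraries and squares for fits without 1 library each. Gata2 (-1.31) and Ets2 (-0.62) stay called in every such fit, while Gata3, Hand1 and Tfap2c each lose the call in some.

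The summed level of the 10 factors, in CPM with no scaling for gene length, was 128 to 130 CPM in 4OHT libraries and 133 to 136 CPM in vehicle libraries. Tfap2c made up 65.1% to 68.5% of the sum in 4OHT and 54.7% to 55.7% in vehicle libraries, and Ets2 made up 23.3% to 27.9% in 4OHT and 36% to 36.1% in vehicle libraries. The other 8 genes together gave 10.5, 7.64 and 11.8 CPM in 4OHT replicates 1, 2 and 3 and 11.2 to 12.4 CPM in vehicle libraries. The 7.64 CPM of the shallow 4OHT replicate 2 rests on 1 read of Tfap2a and 3 of Esx1.

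Other regulators of the trophoblast also went both ways. Of 20 listed genes 19 were tested, of which 4 rose, 5 fell and 10 did not pass, with a median log2 fold change of -0.13. That is 47.4% called, beside 22.4% of all tested genes. Tead4, the DNA-binding partner of YAP that acts upstream of Cdx2, fell to 12.0, 11.5 and 12.4 CPM in 4OHT libraries, against 20.7, 19.9 and 18.7 CPM in vehicle libraries (log2 fold change -0.70, SE 0.09, edgeR adjusted p = 4.18e-06). Eomes, a T-box factor of trophoblast stem cells, stood at 8.77, 9.55 and 8.19 CPM in 4OHT libraries, against 9.17, 9.46 and 9.52 CPM in vehicle libraries, and did not pass (log2 fold change -0.13, edgeR adjusted p = 0.381). Grhl2, a grainyhead factor of epithelia, fell to 18.8, 7.64 and 15.1 CPM in 4OHT libraries, against 34.6, 31.1 and 32.4 CPM in vehicle libraries (log2 fold change -0.96, edgeR adjusted p = 2.86e-07). Both Tead4 and Grhl2 had all 4OHT values below all vehicle values. The groups did not overlap for 8 of the 19 tested regulators, beside 31.3% of all tested genes. In the shallow 4OHT replicate 2 the values rest on 6 reads of Tead4 and 4 of Grhl2, so the separation rests mainly on 4OHT replicates 1 and 3. Sox15, a SOX factor of giant cells, fell (log2 fold change -0.57, edgeR adjusted p = 4.87e-05). Sox21, a SOX factor of trophoblast and neural progenitors, rose to 14.9, 21.0 and 16.4 CPM in 4OHT libraries, against 5.50, 5.53 and 5.63 CPM in vehicle libraries (log2 fold change 1.5, edgeR adjusted p = 1.33e-09). Its 4OHT replicate 2 value rests on 11 reads.

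Among structural, signalling and hormone genes of trophoblast, falls outnumbered rises, and the placental hormone genes listed had no read. Of 24 listed genes 16 were tested, of which 9 fell, 4 rose and 3 did not pass, with a median log2 fold change of -0.47. That is 81.2% called, beside 22.4% of all tested genes. This list shares keratin genes with a list already examined on these samples, so that its direction is not independent evidence. Krt7, Krt8, Krt18 and Krt19, the simple-epithelium keratin genes, were among the falls. Krt7 was low, its groups overlapped, and neither DESeq2 nor limma-voom called it. The fall of Krt19 was the largest in this list (2.30, 3.82 and 2.09 CPM in 4OHT libraries against 6.50, 6.52 and 8.91 CPM in vehicle libraries, edgeR adjusted p = 1.36e-07). Its 4OHT replicate 2 value rests on 2 reads. Fgfr2 and Cyp11a1 were among the rises (log2 fold changes 0.95 and 0.98, edgeR adjusted p = 3.04e-05 and 0.0117). Lgals3, a galectin gene, fell to 14.1, 9.55 and 16.4 CPM in 4OHT libraries, against 31.4, 30.0 and 33.4 CPM in vehicle libraries (log2 fold change -1.08, edgeR adjusted p = 1.58e-08). Tfpi, an inhibitor of blood coagulation, fell as well (log2 fold change -0.72, edgeR adjusted p = 5.31e-08). Peg10, an imprinted retrotransposon-derived gene of the placenta, rose to 338, 319 and 333 CPM in 4OHT libraries, against 170, 156 and 162 CPM in vehicle libraries (log2 fold change 1.03, edgeR adjusted p = 1.08e-10). With Peg10 as its largest part, the summed level of the 24 genes was higher in 4OHT (481 to 485 CPM) than in vehicle libraries (377 to 398 CPM). Peg10 alone rose by more than this sum, so the other genes of the list together summed lower in 4OHT. The placental lactogen and proliferin genes Prl3d1, Prl3b1 and Prl2c2, the cathepsin gene Ctsq and the steroid enzyme gene Hsd3b6 had no read in any of the 6 libraries.

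Of the Hippo and NOTCH genes that act upstream of Cdx2 in the embryo, 5 of 9 tested rose, all of them Hippo genes, and 4 did not pass, with a median log2 fold change of 0.23. That is 55.6% called, beside 22.4% of all tested genes called either way and 11.9% called higher. The NOTCH genes Notch1 and Rbpj had log2 fold changes of -0.17 and -0.13 (edgeR adjusted p = 0.0834 and 0.162). Neither edgeR nor DESeq2 called a gene lower (0 each), edgeR had 1 and DESeq2 0 lower at p under 0.05 before adjustment, and the fit with a replicate block called 2 lower, Notch1 and Rbpj. Amot, a scaffold protein that holds YAP outside the nucleus, rose to 14.6, 9.55 and 13.6 CPM in 4OHT libraries, against 5.80, 5.53 and 5.06 CPM in vehicle libraries (log2 fold change 1.35, edgeR adjusted p = 8.6e-09). Lats2, a kinase that phosphorylates YAP, rose to 27.0, 19.1 and 26.2 CPM in 4OHT libraries, against 13.9, 13.8 and 12.8 CPM in vehicle libraries (log2 fold change 0.96, edgeR adjusted p = 3.96e-08). The 4OHT replicate 2 values rest on 5 reads of Amot and 10 of Lats2. Amotl2, a relative of Amot, and Wwtr1, which encodes the YAP-related coactivator TAZ, rose with log2 fold changes of 0.49 and 0.35 (edgeR adjusted p = 4.04e-06 and 0.00128), and DESeq2 did not call Wwtr1 (adjusted p = 0.201).

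**Figure D4:**
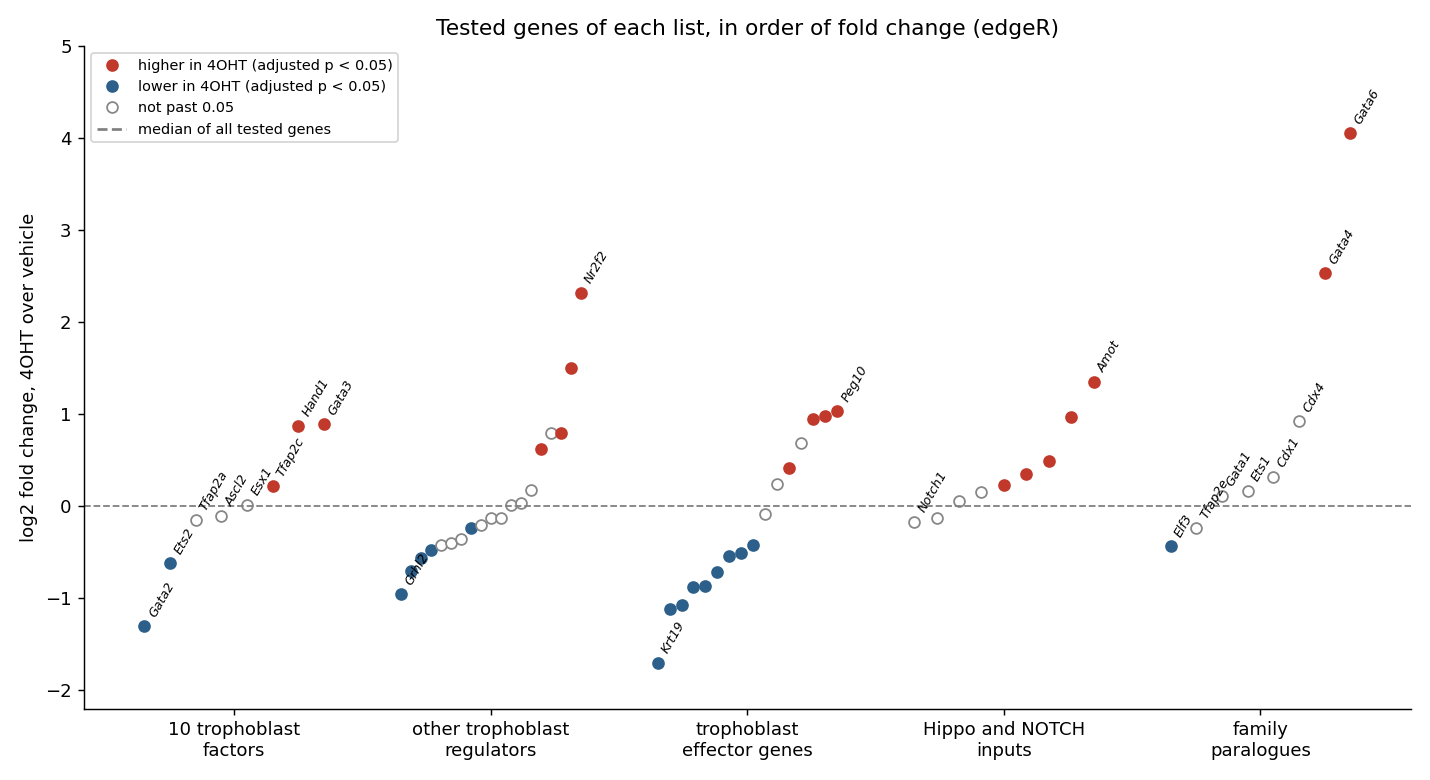
Log2 fold change of 4OHT over vehicle (vertical axis) for the tested genes of 5 lists, in order within each list, with filled points past an adjusted p of 0.05 and a dashed line at the median of all tested genes. Of the 8 tested factors 3 were called higher and 2 lower, and 9 of 16 tested effector genes were called lower. Over all 14458 tested genes 11.9% were called higher and 10.5% lower.

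Of the marker lists of other cell types, that of the primitive endoderm had all 6 markers higher, beside 11.9% of all tested genes called higher and 22.4% called either way, while each other list held markers that did not pass. The part of these markers in the results above was not tested. The primitive endoderm markers summed to 43.5, 19.1 and 42.1 CPM in 4OHT replicates 1, 2 and 3 and to 6.22 to 7.23 CPM in vehicle libraries. In each marker sum the 4OHT replicate 2 value is that of the shallow library. Mesoderm markers, a lineage that uses Hand1, Gata2 and Gata3, summed to 5.49 to 6.21 CPM in 4OHT and 3.69 to 4.69 CPM in vehicle libraries, with 2 of 6 tested, 1 of them higher. Surface ectoderm and neural crest markers, where Tfap2a acts, summed to 111 to 122 CPM in 4OHT and 122 to 133 CPM in vehicle libraries. Krt5, Krt14, Trp63 and Sox10 were too low to test, so the sum came mainly from Foxd3 and Grhl3. Of these 2 of 6 tested, Grhl3 was lower. Germ cell markers, where Tfap2c acts, summed to 109, 93.6 and 113 CPM in 4OHT replicates 1, 2 and 3 and to 117 to 121 CPM in vehicle libraries. Of these 6 markers 2 were higher and 2 lower. Fibroblast markers summed to 8.1 to 9.55 CPM in 4OHT and 17.4 to 18.5 CPM in vehicle libraries, with Thy1 lower among 3 of 6 tested. The 7 trophoblast stem cell markers summed to 28.5, 34.4 and 27.1 CPM in 4OHT replicates 1, 2 and 3 and to 29.3 to 31.3 CPM in vehicle libraries. 4OHT replicates 1 and 3 thus lay below the vehicle range and only the shallow replicate 2 above it. Of the 5 tested, 1 was higher and 2 lower. The 8 markers of differentiated placenta summed to 1.04, 0 and 1.53 CPM in 4OHT replicates 1, 2 and 3 and to 0.68 to 0.747 CPM in vehicle libraries. 4OHT replicates 1 and 3 thus lay above the vehicle range, at a low level. Of the 8 markers, 4 had 0 reads in all 6 libraries, and 0 of the 2 tested were called.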

How the data were processed

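Per the labels' protocols, the 6 samples of mouse embryonic stem cells gave polyadenylated RNA for NEBNext Ultra libraries. The authors deposited whole-number read counts per gene symbol, with totals of 515388 to 55194644. The submitters' processing notes name STAR, DESeq and mm9, without saying how reads were counted, with which annotation or by strand. Groups came from the labels. The members and gene lists were chosen with earlier results of these data known.

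The single-gene test was that of edgeR 4.0.16 (R 4.3.3), with filterByExpr (minimum count 10), TMM factors, 1 treatment term, a prior count of 0.125 and Benjamini-Hochberg adjustment over the 14458 tested genes, with a threshold of 0.05. Fold changes are 4OHT over vehicle. The SE is the coefficient divided by the root of the F statistic. The procedure was tested on simulated counts. Alternatives used DESeq2 1.42.0, limma 3.58.1, other filters and scalings, and left out each library. Deviations of same-numbered samples from their group means had correlations of 0.57, 0.15 and 0.39 over 3632 genes for replicates 1, 2 and 3. However, 4OHT replicate 3 correlated more with vehicle replicate 2 (0.45) than with its own number. These values do not settle whether the numbers pair the samples. A replicate block was fitted beside the unpaired test. No 2 libraries agreed within sampling noise (chi-square per degree of freedom 1.25 to 31.6). Transcript lengths and overlaps came from GENCODE vM21, and promoter windows from RefSeq, where 8 of the 10 members matched. No other gene matched 50% of a member transcript at 95% identity (blastn 2.17.0). Named genes were the members, Nanog, Pou5f1, Sox2, Eomes, Tead4 and up to 4 called genes of each other list with the smallest adjusted p. Other names were chosen after their values were seen.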

Additional observations from a re-analysis of the deposited data

How the results depend on the processing

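Ets2 and Gata2 had negative log2 fold changes in each alternative that tested them, and both were called lower in each, except that DESeq2 with all libraries did not call Gata2 (log2 fold change -1.33, adjusted p = 0.222). The rises of Tfap2c, Gata3 and Hand1 were less stable: of the 10 factors, 3 were called higher and 2 lower, but 0 and 1 with DESeq2 (1 higher at an unadjusted p under 0.05, and no adjusted p for Gata3 and Hand1), 1 and 2 with limma-voom and quantile normalization, 1 and 1 at a mean count of at least 50, which left 4 members, and 1 and 2 with DESeq2 without 4OHT replicate 2, a fit chosen after seeing the data. Leaving out single libraries gave 1 to 2 higher and 2 lower. The other regulators gave 4 higher and 5 lower, but 2 and 3 with DESeq2 and 2 higher with limma-voom. The effector genes gave 4 higher, but 2 with DESeq2, with limma-voom and with DESeq2 without 4OHT replicate 2. Hippo and NOTCH genes gave 0 lower, 2 with the replicate block and 0 to 1 without single libraries. The paralogues gave 2 higher, 1 with limma-voom, and 1 lower, 2 with no filter on low counts and 1 to 2 without single libraries. Over all genes 1719 were higher and 1514 lower, with 568 and 409 in DESeq2 and 1120 and 968 in limma-voom. The replicate block changed no call of a member. The log2 fold change of Ascl2 ran from -0.30 to 0.09 without single libraries, above 0 without 4OHT replicate 1, and that of Esx1 from -0.02 (without 4OHT replicate 2, vehicle replicate 1 or vehicle replicate 2) to 0.06, and it was -0.03 with DESeq2 without 4OHT replicate 2. The cause of these shifts was not tested. The depth of 4OHT replicate 2 limits all genes below a few CPM most. It also limits higher genes with modest changes, such as Tfap2c and Ets2, with 45 and 19 reads there.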

Other observations

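Close relatives of the 10 factors were mostly low or did not pass, apart from those of the endoderm. Of 14 listed paralogues 8 were tested, of which 2 rose, 1 fell and 5 did not pass, with a median log2 fold change of 0.24. That is 37.5% called, beside 22.4% of all tested genes. Gata6, a GATA factor of the primitive endoderm, stood at 10.4, 11.5 and 12.1 CPM in 4OHT libraries, against 0.548, 0.747 and 0.838 CPM in vehicle libraries (log2 fold change 4.05, edgeR adjusted p = 1.44e-12). Gata4, which acts in the same lineage, stood at 8.46, 0 and 7.51 CPM in 4OHT libraries, against 1.21, 1.64 and 1.41 CPM in vehicle libraries (log2 fold change 2.53, edgeR adjusted p = 2.81e-09), and limma-voom with quantile normalization did not call it (adjusted p = 0.0554). Elf3, an epithelial ETS factor related to Elf5, fell to 38.4, 51.6 and 41.6 CPM in 4OHT libraries, against 51.4, 53.9 and 58.7 CPM in vehicle libraries (log2 fold change -0.44, edgeR adjusted p = 0.000199). Its 4OHT replicate 2 value rests on 27 reads.

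The nearest tested genes on either side of each factor, 20 in all in RefSeq order on GRCm38, gave 5 rises, 2 falls and 13 that did not pass. That is 35% called, beside 22.4% of all tested genes. Next to Gata2, Eefsec fell to 21.0 ± 1.99 CPM in 4OHT cells, against 28.9 ± 0.49 CPM in vehicle cells (SD, n = 3 each; log2 fold change -0.41, edgeR adjusted p = 0.000468), and Rpn1 did not pass (log2 fold change -0.11). Both neighbours of Hand1, Sap30l and Larp1, rose (log2 fold changes 0.23 and 0.28, edgeR adjusted p = 0.0473 and 0.000849). Beside factors that did not pass or were not tested, Fam199x fell and Nrk rose next to Esx1 (log2 fold changes -0.53 and 0.41, edgeR adjusted p = 0.000716 and 0.0315), Gcnt2 rose next to Tfap2a (0.17, edgeR adjusted p = 0.0428) and D5Ertd605e rose next to Cdx2 (0.32, edgeR adjusted p = 0.0398). The other 13 neighbours, among them those of Ets2, Gata3 and Tfap2c, did not pass. These neighbours were chosen after the values of the members were seen.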
